A study of Mus musculus with 39 samples.

Results

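Gnal, Gng7, Ppp1r1b, Arpp21, Rasgrp2 and Rasd2 are 6 genes of the Golf and DARPP-32 signalling branch of striatal neurons. They were chosen by gene name and are 6 of the 51826 genes counted in each library. PolyA RNA was sequenced from micropunches of 300 µm frozen sections, taken from the nucleus accumbens (NAc), the ventral part of the striatum, and from the basolateral amygdala (BLA), a cortex-like nucleus of mainly glutamatergic neurons. The series is titled for alcohol drinking and reward and for the transcription cofactor LMO4. Its genotype comparison sets mice with 1 gene-trap allele of Lmo4 (Lmo4gt/+) against wild-type (WT) mice. The groups were 9 NAc libraries of Lmo4gt/+ mice, 10 NAc libraries of WT mice, 9 BLA libraries of Lmo4gt/+ mice and 11 BLA libraries of WT mice. The allele is germline, so every cell of a punch carried it, and no other allele or treatment is given for any group. All mice were of strain C57BL/6J and 8 to 12 weeks old. Each library came from 1 mouse, and 19 of the 20 mice gave both regions.

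On NCBIM37 (mm9), Gnal lies on the plus strand of chr18:67247990-67386446 and Gng7 on the minus strand of chr10:80411369-80477690. Ppp1r1b lies on the plus strand of chr11:98209718-98219110 and Arpp21 on the minus strand of chr9:111967595-112138442. Rasgrp2 lies on the plus strand of chr19:6399340-6415216 and Rasd2 on the plus strand of chr8:77737843-77748012. The counts cover the exons of each gene, and 4 of the 6 share exon bases with a gene on the other strand: Gnal with Mppe1, Arpp21 with 2900079G21Rik, Rasgrp2 with Gm14965 and Ppp1r1b with 1700003D09Rik. Those partners stayed at or below 16.3 CPM (counts per 1000000 gene counts) in every library. Whether reads were counted by strand is not given in the sources used here, so reads of such pairs cannot be told apart.

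In medium spiny neurons, the main neurons of the striatum, the dopamine receptor encoded by Drd1a and the adenosine receptor encoded by Adora2a act through Golf. Golf is a G protein that stimulates adenylyl cyclase. The resulting cAMP activates protein kinase A, which phosphorylates DARPP-32 and turns it into an inhibitor of protein phosphatase 1. Most other brain regions use the related G protein Gs for the same step. Gnal encodes the alpha subunit of Golf, and Gng7 encodes the gamma subunit that joins it in the striatum. Ppp1r1b encodes DARPP-32, and Arpp21 encodes a further phosphoprotein of this kinase that is enriched in striatum and cortex. Rasgrp2 encodes CalDAG-GEFI, which activates the small G protein Rap in response to calcium and diacylglycerol. Rasd2 encodes Rhes, a small G protein named for its enrichment in the striatum.

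Promoter windows are shown for 3 of the members as a description of sequence, and no link to their levels was tested. Each runs from 250 bases before to 50 bases after a start site of RefSeq on GRCm38.p6, a later build than that of the counts, and is read on the strand of its gene. Capitals mark 2 motifs searched on both strands: TGACG, the core of the cAMP response element, and GGGCGG, the GC box. The windows are chr10:81014876-81015175 and chr10:81001316-81001615 on the minus strand for Gng7, chr19:6399625-6399924 on the plus strand for Rasgrp2, and chr8:75213694-75213993 on the plus strand for Rasd2.
Gng7, start 1: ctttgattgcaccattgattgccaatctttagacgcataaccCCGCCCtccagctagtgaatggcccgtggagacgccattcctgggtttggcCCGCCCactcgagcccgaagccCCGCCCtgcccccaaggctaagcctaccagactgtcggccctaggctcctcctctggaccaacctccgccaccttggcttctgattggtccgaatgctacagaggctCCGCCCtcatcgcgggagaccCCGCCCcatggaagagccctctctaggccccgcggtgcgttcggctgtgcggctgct
Gng7, start 2: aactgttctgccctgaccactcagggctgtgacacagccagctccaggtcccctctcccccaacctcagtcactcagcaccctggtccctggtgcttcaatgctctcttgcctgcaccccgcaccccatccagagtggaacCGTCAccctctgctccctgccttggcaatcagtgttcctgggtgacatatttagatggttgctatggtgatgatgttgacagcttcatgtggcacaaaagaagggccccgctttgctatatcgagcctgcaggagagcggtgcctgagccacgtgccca
Rasgrp2, start 1: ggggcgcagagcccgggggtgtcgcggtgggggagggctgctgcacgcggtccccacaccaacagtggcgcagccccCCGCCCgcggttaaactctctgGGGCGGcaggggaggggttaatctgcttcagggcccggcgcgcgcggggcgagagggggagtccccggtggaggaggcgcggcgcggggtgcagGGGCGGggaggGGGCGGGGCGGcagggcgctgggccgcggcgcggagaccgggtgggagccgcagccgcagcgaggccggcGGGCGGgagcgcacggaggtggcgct
Rasd2, start 1: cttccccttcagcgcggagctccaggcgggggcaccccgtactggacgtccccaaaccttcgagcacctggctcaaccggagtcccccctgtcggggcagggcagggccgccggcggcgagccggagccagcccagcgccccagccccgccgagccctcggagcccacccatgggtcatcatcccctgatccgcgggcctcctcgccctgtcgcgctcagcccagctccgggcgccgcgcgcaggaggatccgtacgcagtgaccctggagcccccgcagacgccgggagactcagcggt
The Gng7 starts differ: the window of start 1 holds 5 GC boxes and no TGACG, and that of start 2 holds 1 TGACG and no GC box. The Rasgrp2 window holds 6 GC boxes, of which 2 overlap, in a sequence of 80% G and C. The Rasd2 window has 74.7% G and C and neither motif in these letters. Over the 32851 windows of this length in the table, 20.8% hold TGACG and 35.7% hold GGGCGG on either strand. Windows were matched for 4 members in all. Of the 9 Arpp21 windows, 3 hold TGACG and 0 hold GGGCGG, and of the 2 Rasgrp2 windows 2 hold GGGCGG and 0 hold TGACG. A match is a description of the letters and does not show that a factor binds there.

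Libraries held 21255934 to 51021670 gene counts. Lmo4, the trapped gene, measured 46.0 to 72.0 CPM in NAc libraries of Lmo4gt/+ mice, against 71.6 to 109 CPM in those of WT mice. In the BLA it measured 65.3 to 106 CPM in Lmo4gt/+ mice, against 139 to 174 CPM in WT mice. The highest Lmo4gt/+ value in the NAc, 72.0 CPM, was that of mouse 122, for which the title of the NAc library names the mutant while the genotype field reads WT. The title decided its group, and the genotype results are also given without it. The marker genes followed the region labels: all 16 medium spiny neuron markers were higher in the NAc in both genotypes, and of 8 glutamatergic markers 8 were lower in the NAc in Lmo4gt/+ mice and 7 in WT mice, with adjusted p under 0.05 (Neurod6 and Rspo2 were at 0 in some NAc libraries). Some punches stood apart. In the BLA, mice 149 and 159 (Lmo4gt/+) and 129 and 156 (WT) had summed medium spiny neuron markers of 1837 to 1955 CPM, against 934 to 1474 CPM in the other BLA libraries. The same 4 had the lowest summed glutamatergic markers of the BLA, 2010 to 2289 CPM. Their summed markers of central amygdala and intercalated neurons were 226 and 221 CPM in mice 149 and 159, against 143 to 230 CPM in the other Lmo4gt/+ mice, and 274 and 248 CPM in mice 129 and 156, the highest of the WT mice. Mouse 149 also had the highest oligodendrocyte sum of the BLA, 2711 CPM. In the NAc, mice 122 (Lmo4gt/+) and 134 (WT) had summed glutamatergic markers of 1019 and 1633 CPM, against at most 374 CPM in the other NAc libraries. The NAc library of mouse 149 had 38.1% of its reads in lines that name no gene, against 27.9% to 33.3% in the other NAc libraries. The BLA library of mouse 127 held 616 CPM of choroid plexus and ependyma markers.

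All 6 genes were higher in the NAc than in the BLA, in both genotypes and in each of the 19 mice with both regions. The folds ran from 3.72 for Arpp21 in WT mice to 11.7 for Ppp1r1b in WT mice. Values below are CPM in each library (lowest, median and highest of a group), folds and adjusted p-values are from edgeR's quasi-likelihood test with the mouse as a block and Benjamini-Hochberg adjustment over all genes tested, and a log2 fold change is given ± its standard error. In punches, fewer cells of a type and less RNA per cell cannot be told apart. All 6 of 6 genes were called higher in each genotype, where 26.2% of 17026 genes tested were called higher and 26.4% lower in Lmo4gt/+ mice, and 31.1% of 16887 higher and 28.5% lower in WT mice. Their median log2 fold change was 2.60 in Lmo4gt/+ mice and 2.48 in WT mice, against a median over all genes tested of 0.01 and 0.04. Of 7 oligodendrocyte markers 7 were also called higher in the NAc in both genotypes, with summed levels of 3397 to 6567 CPM in the NAc of Lmo4gt/+ mice, against 1506 to 2711 CPM in their BLA, and of 3984 to 8377 CPM in the NAc of WT mice, against 1738 to 2497 CPM in the BLA. Their part in the region differences was not tested. Scaling to library totals, without the composition correction, moved the median of all genes in WT mice to 0.13 and the higher share of all calls to 62.8%, against 52.2%, and the 6 folds stayed far above that shift.

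The G protein subunits come first. Gnal ran from 654.5 to 962 CPM (median 923) in NAc libraries of Lmo4gt/+ mice, against 144 to 266 CPM (median 161) in their BLA. In WT mice it ran from 569.5 to 937 CPM (median 874) in the NAc, against 160 to 315 CPM (median 193) in the BLA. The regions did not overlap in either genotype. How many of all genes tested keep the regions apart, or are higher in the NAc of every mouse, was not counted. This holds for each member below. The lowest NAc values were those of mice 134 and 122, the NAc punches with the most glutamatergic markers, and the highest BLA values those of 129, 156, 149 and 159. The log2 fold change was 2.18 ± 0.09 in Lmo4gt/+ mice (adjusted p = 1.07e-10) and 1.93 ± 0.10 in WT mice (adjusted p = 5.60e-09).

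Gng7, the gamma subunit, separated the regions further. It ran from 748 to 1160 CPM (median 1073) in the NAc of Lmo4gt/+ mice, against 109 to 181 CPM (median 124.6) in their BLA. WT mice had 584 to 1136 CPM (median 1014) in the NAc, against 102 to 178 CPM (median 116) in the BLA. Every NAc library lay above 3 times the highest BLA value. The fold was 7.34 (95% interval 6.48 to 8.32) in Lmo4gt/+ mice and 7.19 (6.13 to 8.45) in WT mice, with adjusted p of 6.73e-12 and 1.88e-10 by edgeR's quasi-likelihood test.

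Ppp1r1b, which encodes DARPP-32, had the largest region difference of the 6 and the widest spread in the BLA. It ran from 698 to 1303 CPM (median 926) in the NAc of Lmo4gt/+ mice, against 47.3 to 159 CPM (median 60.5) in their BLA. In the WT mice Ppp1r1b ran from 577 to 1196 CPM (median 908) in the NAc, against 47.1 to 167 CPM (median 61.9) in the BLA. The 4 BLA punches rich in medium spiny neuron markers held 145 to 167 CPM, and the others at most 108 CPM. The standard deviation was 51.1% of the mean in BLA libraries of Lmo4gt/+ mice and 52.4% in those of WT mice, against 20.2% and 19.7% in the NAc. The log2 fold change was 3.52 ± 0.20 in Lmo4gt/+ mice and 3.55 ± 0.25 in WT mice (adjusted p = 2.52e-08 and 7.96e-07).

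Arpp21, the calmodulin-regulating phosphoprotein, was the member with the highest BLA level in CPM and the smallest region difference. It ran from 988 to 1650 CPM (median 1360) in the NAc of Lmo4gt/+ mice, against 283 to 418 CPM (median 313) in their BLA. WT mice had 840 to 1589 CPM (median 1332) in the NAc, against 287 to 360 CPM (median 320) in the BLA. Its BLA levels were the most even of the 6, with a standard deviation of 11.6% of the mean in Lmo4gt/+ mice and 6.91% in WT mice. The log2 fold change was 1.97 ± 0.08 in Lmo4gt/+ mice and 1.90 ± 0.10 in WT mice (adjusted p = 9.34e-11 and 1.48e-09).

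The small G protein genes come last. Rasgrp2, the Rap activator, ran from 93.7 to 178 CPM (median 151) in the NAc of Lmo4gt/+ mice, against 10.7 to 33.1 CPM (median 16.01) in their BLA. WT libraries ran from 104 to 177 CPM (median 131) in the NAc, against 12.3 to 31.96 CPM (median 18.4) in the BLA. The regions did not overlap, and the log2 fold change was 2.91 ± 0.11 in Lmo4gt/+ mice and 2.71 ± 0.16 in WT mice (adjusted p = 1.40e-10 and 1.17e-07).

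Rasd2, which encodes Rhes, varied most within the NAc. It ran from 273 to 600.1 CPM (median 479) in the NAc of Lmo4gt/+ mice, against 64.0 to 107 CPM (median 75.2) in their BLA. WT mice had 229 to 557 CPM (median 381) in the NAc, against 66.6 to 98.8 CPM (median 74.3) in the BLA. The 600.1 CPM were those of mouse 149, whose NAc punch had the lowest Ppp1r1b of the Lmo4gt/+ mice, 698 CPM, and the most reads in lines that name no gene. The log2 fold change was 2.33 ± 0.12 in Lmo4gt/+ mice and 2.26 ± 0.15 in WT mice (adjusted p = 1.58e-09 and 2.86e-07).

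**Figure D1:**
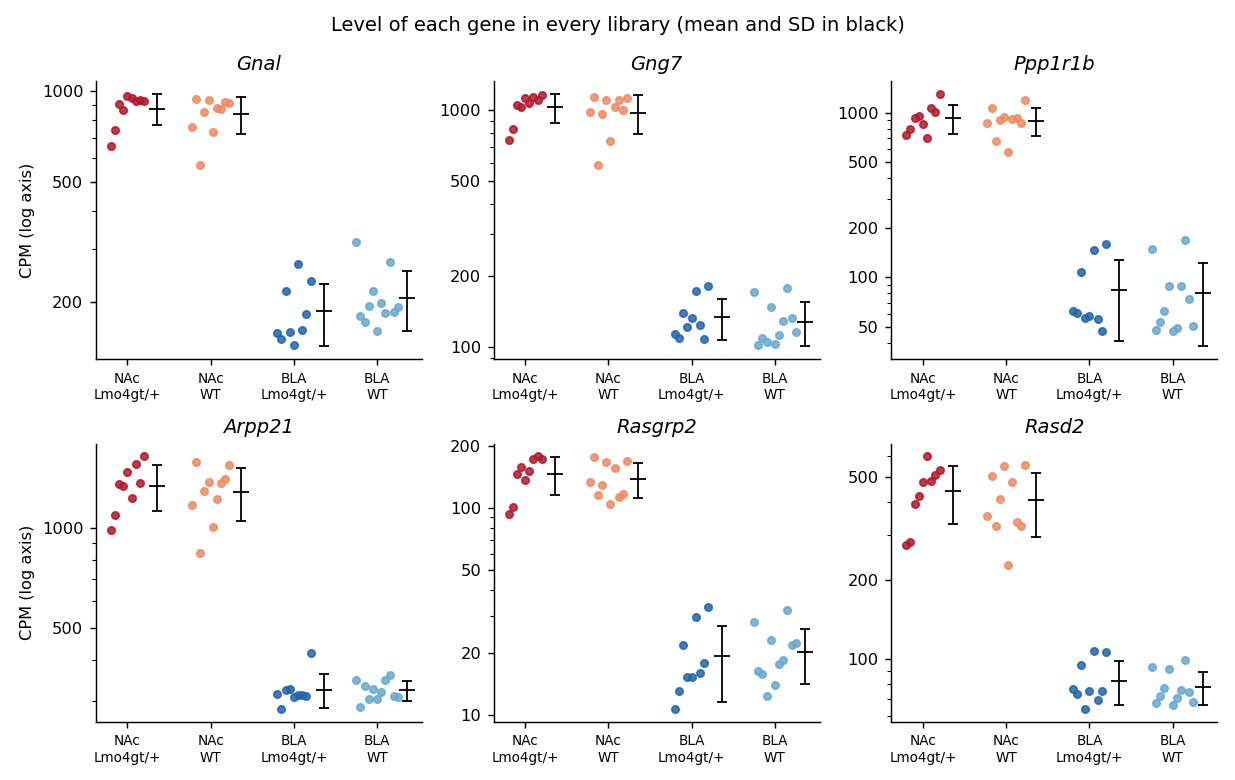
CPM of each gene (log axis) in every library of the 4 groups, 1 point per mouse, with the mean and SD in black beside each group. In all 6 panels the lowest NAc library lies above the highest BLA library, and Ppp1r1b shows the widest BLA spread, 47.1 to 167 CPM. The share of all genes tested with such a gap was not counted.

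Within mice, the NAc level of Ppp1r1b was 4.80 to 21.3 times the BLA level in Lmo4gt/+ mice (median 13.2) and 5.51 to 23.6 times in WT mice (median 12.4). The ratio for Gng7 was 6.23 to 10.2 (median 7.60) in Lmo4gt/+ mice and 5.34 to 11.1 (median 7.51) in WT mice. Gnal was lowest of its group in mouse 149 of the Lmo4gt/+ mice, 3.55 times, and in mouse 129 of the WT mice, 2.41 times, both BLA punches with high medium spiny neuron markers. Without mice 122, 149 and 159 the log2 fold change of Ppp1r1b in Lmo4gt/+ mice was 3.81 ± 0.18, and without mice 129, 134 and 156 it was 3.86 ± 0.19 in WT mice. All 6 genes stayed called higher in both genotypes in these smaller sets.

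**Figure D2:**
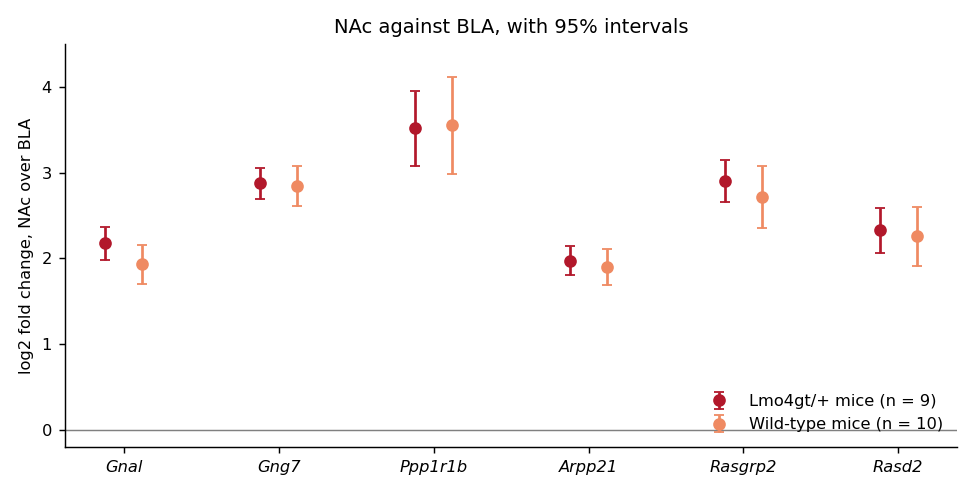
log2 fold change of NAc over BLA for each gene from edgeR, with 95% intervals as bars, in 9 Lmo4gt/+ mice (left of each pair) and 10 WT mice with both regions. Ppp1r1b is highest at 3.52 and 3.55, Arpp21 and Gnal are lowest at 1.90 to 2.18, and the intervals of the genotypes overlap for each gene.

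The order of levels between genes was read per kb of exon, since longer transcripts give more reads. With all annotated exons of a gene as its length, Ppp1r1b led in the NAc at 316 ± 63.7 CPM per kb in Lmo4gt/+ mice and 304 ± 59.9 in WT mice (SD, n = 9 and 10). Gng7 followed at 272 ± 37.95 and 257 ± 47.3 CPM per kb, and Ppp1r1b was above Gng7 in 7 of 9 and 10 of 10 libraries. Rasd2, Gnal and Arpp21 came next, and Rasgrp2 was lowest at 11.7 ± 2.45 and 11.2 ± 2.15 CPM per kb. In the BLA the order was closer: Gng7 stood at 35.3 ± 6.96 CPM per kb in Lmo4gt/+ mice and Ppp1r1b at 28.5 ± 14.6, above Rasd2 in 3 of 9 libraries only. Several places depended on the length used. Arpp21 moved furthest: with all exons it was the fifth in every group, and with its longest coding transcript the second in the NAc and the first in the BLA. With those transcripts the mean of Ppp1r1b stood above that of Gng7 in the BLA too. The means were 41.8 ± 21.3 against 38.95 ± 7.67 CPM per kb in Lmo4gt/+ mice, and 39.7 ± 20.8 against 37.2 ± 7.87 in WT mice. Ppp1r1b was the higher in only 3 of 9 and 5 of 11 of these libraries. In the NAc of WT mice the mean of Gnal stood above that of Rasd2, with Gnal the higher in 5 of 10 libraries. Rasgrp2 was the lowest with either length in all 4 groups.

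Of the nearest relatives read beside them, Gnas and Rasgrp1 were lower in the NAc in both genotypes, and Ppp1r1a and Rasd1 did not pass the test. Some other relatives in the shares below were called higher in the NAc. On the log2 scale Rasgrp3 rose by 0.63 ± 0.08 in Lmo4gt/+ mice and 0.53 ± 0.09 in WT mice. Gng8 rose by 1.54 ± 0.39 and 1.16 ± 0.30, and Gng11 by 1.07 ± 0.23 and 1.46 ± 0.17. Rasgrp4 passed in WT mice only, at 1.31 ± 0.36. Gng8, Gng11 and Rasgrp4 had group means of at most 4.13 CPM. Gnas, which encodes the alpha subunit of Gs, was lower in the NAc, with a log2 fold change of -1.33 ± 0.14 in Lmo4gt/+ mice and -1.15 ± 0.08 in WT mice (adjusted p = 1.87e-06 and 3.33e-09). Gnal made up 71.1% ± 9.55 of the reads per kb of Gnal and Gnas in the NAc of Lmo4gt/+ mice, against 18.7% ± 4.21 in their BLA (SD, n = 9). In WT mice the share was 67.5% ± 7.63 in the NAc, against 20.3% ± 3.73 in the BLA (SD, n = 10). Every mouse had the higher share in the NAc. The highest NAc share, 86.4%, was that of mouse 149, whose NAc library had the lowest Gnas, 210 CPM, against a group median of 483 CPM. With the longest coding transcripts as lengths, chosen after seeing the data, the share was lower in both regions, at 55.8% ± 11.4 in the NAc of Lmo4gt/+ mice, against 10.3% ± 2.59 in their BLA, and 51.3% ± 8.48 in the NAc of WT mice, against 11.3% ± 2.35 in the BLA. The exact two-sided permutation test of sign flips over mice gave p = 0.00391 in Lmo4gt/+ and p = 0.00195 in WT mice, the smallest that 9 and 10 mice can give. The adjusted values over 20 such tests were 0.00868 and 0.00781.

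Gng7 held 77.0% ± 7.38 of the reads per kb of 11 G gamma genes in the NAc of Lmo4gt/+ mice, against 18.1% ± 3.07 in their BLA. Its WT share was 74.0% ± 6.77 in the NAc, against 16.95% ± 3.38 in the BLA. The highest Gng7 share in the NAc, 87.6%, was again that of mouse 149. Among the other gamma genes Gng2 was furthest down in the NAc, with a log2 fold change of -2.21 ± 0.14 in Lmo4gt/+ mice and -1.94 ± 0.14 in WT mice (adjusted p = 3.57e-08 and 3.17e-07). It stood at 13.6 ± 5.88 and 16.5 ± 4.81 CPM per kb in the NAc of Lmo4gt/+ and WT mice, against 55.3 ± 2.64 and 57.7 ± 3.65 in their BLA.

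Ppp1r1b held 92.0% ± 0.786 of the reads per kb of Ppp1r1b and Ppp1r1a in the NAc of Lmo4gt/+ mice, against 48.5% ± 11.1 in their BLA. The WT share was 91.9% ± 1.13 in the NAc, against 47.4% ± 11.6 in the BLA. Ppp1r1a encodes inhibitor 1, the relative of DARPP-32 that inhibits the same phosphatase, and it did not pass the region test (log2 fold change -0.11 ± 0.07 and -0.10 ± 0.09, adjusted p = 0.227 and 0.318). Rasd2 held 98.2% ± 0.961 of the reads per kb of Rasd2 and Rasd1 in the NAc of Lmo4gt/+ mice, against 94.0% ± 1.90 in their BLA, and was higher in the NAc in 8 of 9 mice. WT mice had 98.3% ± 0.875 in the NAc, against 95.2% ± 1.95 in the BLA. Rasd1 was low throughout, with group means of 2.07 to 3.58 CPM. With all exons as the length, Rasgrp2 was at 9.22% ± 1.61 of Rasgrp1 to Rasgrp4 in the NAc of Lmo4gt/+ mice, against 1.03% ± 0.375 in their BLA. WT mice had 8.92% ± 1.20 in the NAc, against 1.11% ± 0.360 in the BLA. This share depended on the length: with longest coding transcripts it was 33.7% ± 4.59 in the NAc of Lmo4gt/+ mice, against 4.98% ± 1.71 in their BLA, and 32.9% ± 3.34 in the NAc of WT mice, against 5.33% ± 1.66 in the BLA. All 10 region comparisons of shares passed with adjusted exact permutation p from 0.00781 to 0.0156, and none of the 10 genotype comparisons did, with adjusted p from 0.291 to 0.905.

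**Figure D3:**
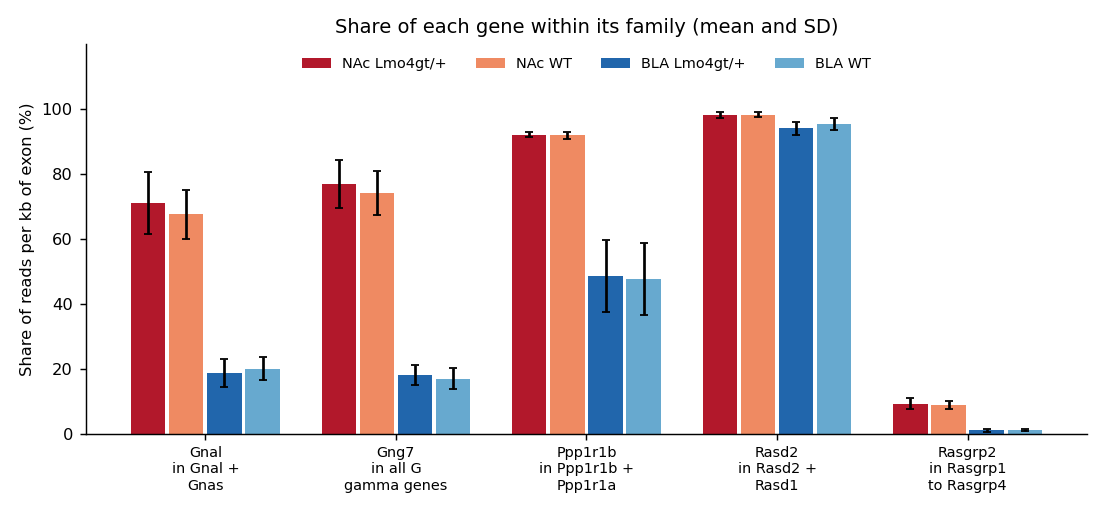
Share of each gene, in percent of the reads per kb of exon of its family, as mean with SD bars in the 4 groups (9, 10, 9 and 11 libraries). With all exons as lengths, Gnal and Gng7 stand at 67.5% to 77.0% in the NAc and 16.9% to 20.01% in the BLA, and with longest coding transcripts Gnal is at 51.3% to 55.8% in the NAc.

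The rest of the pathway was read from lists of its parts, beside the 26.2% of all genes called higher and 26.4% called lower in Lmo4gt/+ mice and the 31.1% and 28.5% in WT mice. Of 30 genes between the receptors and protein phosphatase 1, 15 rose and 9 fell in the NAc of Lmo4gt/+ mice, and 15 rose and 10 fell in that of WT mice. Their median log2 fold change was 0.19 and 0.21. The 3 that rose most were Drd2 and Adora2a, the dopamine and adenosine receptor genes of indirect-pathway neurons, and Rgs9, which speeds the return of G proteins to rest. These, with Drd1a, Adcy5, Pde1b and Pde10a, are also among the 16 medium spiny neuron markers, so this list and those markers overlap. Drd2 had 169 ± 26.3 CPM in the NAc of Lmo4gt/+ mice, against 9.80 ± 11.6 CPM in their BLA (SD, n = 9), and Rgs9 had 365 ± 79.0 CPM, against 18.4 ± 16.9 CPM. The 3 that fell most were Prkar1b, a regulatory subunit of protein kinase A, Ppp3cb, a catalytic subunit of calcineurin, and Gnb1, a G beta subunit. Prkar1b had a log2 fold change of -1.09 ± 0.08 in Lmo4gt/+ mice and -1.10 ± 0.06 in WT mice (adjusted p = 4.26e-08 and 2.75e-10).

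Of 11 other G alpha genes, 3 rose and 3 fell in the NAc of Lmo4gt/+ mice, and 3 rose and 5 fell in that of WT mice. In Lmo4gt/+ mice these are 27.3% each way, near the share over all genes, and in WT mice 27.3% and 45.5%. Gna12 was the largest of those that rose in WT mice, by 0.69 ± 0.07 on the log2 scale (adjusted p = 2.81e-07). Of 14 tested G beta and gamma genes, 5 rose and 5 fell in Lmo4gt/+ mice, and 7 rose and 5 fell in WT mice. Gnb4 rose by 1.49 ± 0.08 and 1.36 ± 0.08 in Lmo4gt/+ and WT mice (adjusted p = 5.62e-10 and 2.92e-09). Among 5 tested phosphoprotein inhibitors, Ppp1r2, a further inhibitor of protein phosphatase 1, rose by 1.52 ± 0.06 and 1.49 ± 0.06, Arpp19 rose by 0.62 ± 0.09 and 0.57 ± 0.08, and Ensa fell by 0.64 ± 0.08 and 0.52 ± 0.04 in Lmo4gt/+ and WT mice (largest adjusted p 2.58e-05). Of 16 regulators of Ras and Rap, 2 rose and 6 fell in Lmo4gt/+ mice, and 5 rose and 6 fell in WT mice. The shares that rose were 12.5% and 31.2%, below and near those over all genes. Rap1gap, which switches Rap off, rose by 1.60 ± 0.07 and 1.46 ± 0.07 in Lmo4gt/+ and WT mice, and Rasgrf2 fell by 1.53 ± 0.14 and 1.17 ± 0.21 (largest adjusted p 0.000847).

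Within a region, libraries differed in the level of medium spiny neuron markers, and the 6 genes moved with it. Glutamatergic, central amygdala and oligodendrocyte markers also differed between these libraries, and their part was not tested. The medium spiny neuron level, the mean log2 CPM of 16 marker genes that include none of the 6, ran from 3.29 to 5.58 in BLA libraries of Lmo4gt/+ mice, against 3.67 to 5.77 in those of WT mice. In the NAc it ran from 7.70 to 8.33 in Lmo4gt/+ mice, against 7.33 to 8.37 in WT mice. Over 20 BLA libraries, Ppp1r1b and Gnal had Pearson's r = 0.923 each with this level, with Spearman's rho of 0.660 and 0.923. Arpp21 had the lowest, r = 0.661 and rho = 0.517 (permutation p = 0.00071 for r). Over 19 NAc libraries Gng7 had the highest, r = 0.966 and rho = 0.889. Rasgrp2 had the lowest r, 0.768, with rho = 0.826, and Gnal the lowest rho, 0.711, with r = 0.917. All 12 relations passed after Benjamini-Hochberg adjustment of two-sided permutation p-values, the largest adjusted being 0.00071 for r and 0.0204 for rho. Without the 2 libraries farthest from the median, r ran from 0.584 for Arpp21 in the BLA to 0.910 for Gng7 in the NAc. Within a genotype r ran from 0.611 to 0.984 over the 24 combinations.

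The steepness differed between genes in the BLA. For each log2 unit of the medium spiny neuron level, Ppp1r1b was higher by 0.72 log2 units, Rasgrp2 by 0.50, Gnal by 0.35, Gng7 by 0.29, Rasd2 by 0.25 and Arpp21 by 0.10. In the NAc the slopes ran from 0.71 for Gnal to 1.16 for Rasd2. The BLA relation rested in part on the 4 punches that stood apart. Without them, a choice made after seeing the data, r over 16 BLA libraries was 0.487 for Arpp21 (adjusted permutation p = 0.0549), 0.576 for Gng7 and 0.826 for Gnal. For Gng7, Ppp1r1b and Arpp21 the ranks then followed the level weakly, with rho of 0.303, 0.344 and 0.288.

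**Figure D4:**
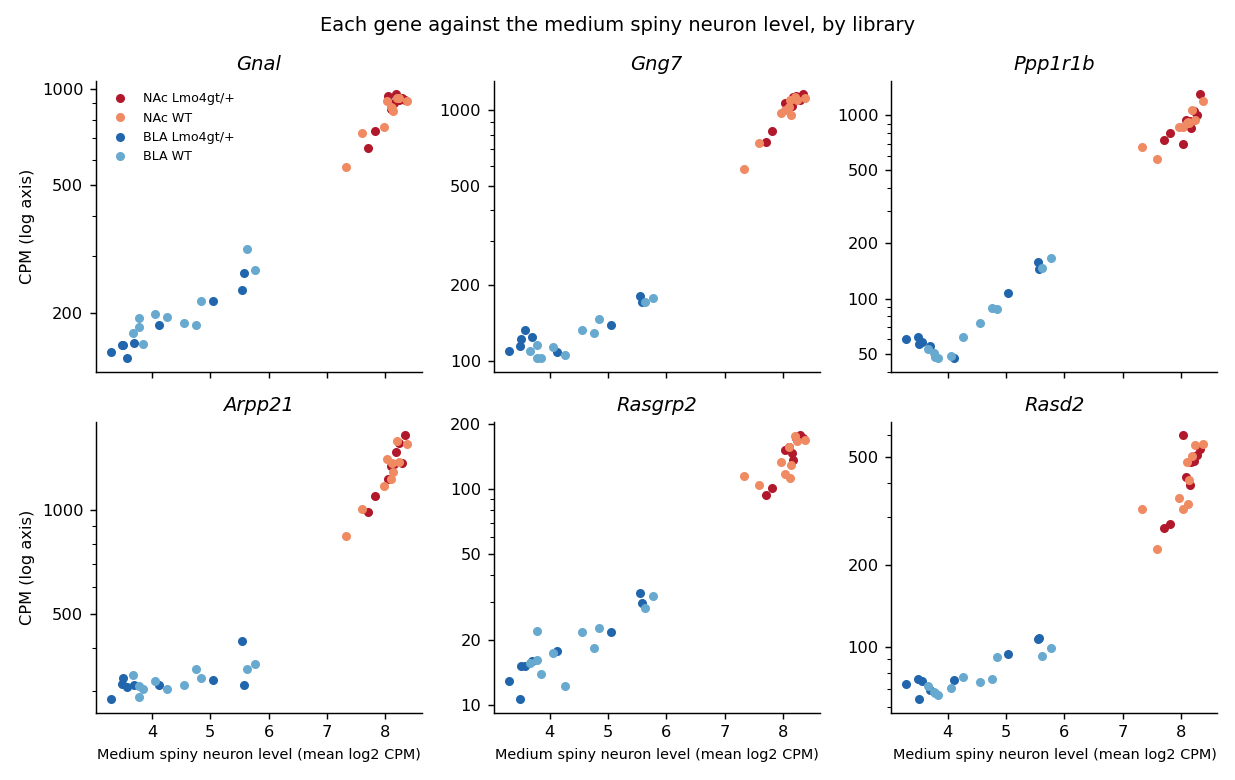
CPM of each gene (log axis) against the medium spiny neuron level (mean log2 CPM of 16 markers) in 39 libraries, 1 point per library, coloured by group. The 4 BLA libraries at a level of 5.55 to 5.77 hold the highest Ppp1r1b of the BLA, 145 to 167 CPM, and Arpp21 is nearly level across the BLA.

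The 6 genes also moved with each other. Over the 15 pairs, Pearson's r of log2 CPM with group means removed ran from 0.560 to 0.943 in the BLA (median 0.841) and from 0.631 to 0.955 in the NAc (median 0.736). The highest pairs were Gng7 with Ppp1r1b in the BLA and Gnal with Gng7 in the NAc, the 2 G protein subunits. Rasgrp2 and Rasd2 formed a closer pair in the NAc, at r = 0.904, than either did with the G protein subunits or phosphoproteins there, at 0.653 to 0.746. These values share libraries, and are given as a description.

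Among 13041 genes compared over 20 BLA libraries, those most like Gnal were Cacna2d2 (r = 0.955), Adcy5 (0.953) and Sez6 (0.949), and 27 genes, 0.207%, had r over 0.9. Gng7 was most like Dlx6 (0.953), Ppp1r1b (0.943) and Pde1b (0.939), and Ppp1r1b most like Pde1b (0.967), Pde7b (0.945) and Gng7. Rasgrp2 was most like Tmem90a (0.907), Rgs9 (0.894) and Gfra1 (0.891), and Adcy5 (0.933) and Fam40b (0.932) were among the genes most like Rasd2. Arpp21 had no gene with r over 0.9 there, the nearest being Elmod1 (0.794), Id4 (0.786) and Pde1b (0.779).
In 12963 genes over 19 NAc libraries, Gnal was most like Filip1 (0.963), Ric8b (0.956) and Gng7 (0.955), and Gng7 most like Cpne5 (0.969), Gnal and Cacna2d3 (0.951). Ppp1r1b was most like Cd4 (0.939), Rem2 (0.935) and Tesc (0.932), and Arpp21 most like Cacna2d3 (0.953), Camkv (0.952) and Gng7 (0.938). Rasgrp2 was most like Sun2 (0.921), Scn4b (0.920) and Pde1b (0.917), and Rasd2 most like Scn4b (0.981), Itga5 (0.949) and Pde10a (0.945).

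The genotype comparison asked whether an Lmo4 gene trap changed these genes within a region. None of the 6 was called in either region. In the NAc all 6 point estimates lay above 0, with log2 fold changes (Lmo4gt/+ over WT) of 0.10 ± 0.10 for Gnal, 0.11 ± 0.12 for Gng7, 0.08 ± 0.12 for Ppp1r1b, 0.09 ± 0.11 for Arpp21, 0.11 ± 0.13 for Rasgrp2 and 0.16 ± 0.18 for Rasd2. The adjusted p was 0.9999 for each by edgeR's quasi-likelihood test, and the unadjusted p ran from 0.324 to 0.514. Of all genes tested in the NAc, 50.05% lay above 0. The 6 genes moved together over the NAc libraries, with Pearson's r of 0.631 to 0.955 between pairs, so their shared sign is not 6 separate observations. The groups overlapped over nearly their whole ranges: Rasd2, for example, measured 273 to 600.1 CPM in Lmo4gt/+ mice, against 229 to 557 CPM in WT mice. Of 16999 genes tested 1, Lmo4 itself, was called (0.00588%), 454 genes had an unadjusted p under 0.05 (2.67%, with 0 of the 6 among them), and DESeq2 called 2 genes, none of them a member. The medium spiny neuron markers moved alike, 15 of 16 lying above 0 with a median of 0.12, and their summed level ran from 5315 to 9443 CPM in Lmo4gt/+ mice, against 4723 to 9229 CPM in WT mice. Of 8 glutamatergic markers 0 lay above 0, with a median of -0.73 and summed levels of 29.4 to 1019 CPM in Lmo4gt/+ mice, against 25.6 to 1633 CPM in WT mice, and 0 of 7 oligodendrocyte markers did, with a median of -0.28. The part of these markers in the estimates was not tested. Without the NAc library of mouse 122 the 6 estimates lay between 0.12 and 0.23 (adjusted p 0.952 to 0.954). Without those of mice 122, 134 and 149 they lay between 0.06 and 0.12, with unadjusted p from 0.368 to 0.605.

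In the BLA the estimates were -0.14 ± 0.14 for Gnal, 0.07 ± 0.12 for Gng7, 0.08 ± 0.31 for Ppp1r1b, 0.01 ± 0.05 for Arpp21, -0.07 ± 0.21 for Rasgrp2 and 0.09 ± 0.10 for Rasd2, with adjusted p of 0.998 each. Again 1 gene of 17087, Lmo4, was called (0.00585%), 703 genes had an unadjusted p under 0.05 (4.11%, with 0 of the 6 among them), and DESeq2 called 2. Ppp1r1b measured 47.3 to 159 CPM in Lmo4gt/+ mice, against 47.1 to 167 CPM in WT mice, nearly the same range. Its 95% interval ran from a fold of 0.676 to 1.65, so a change within those bounds could not be told from none. For Arpp21, the most even, the interval was 0.933 to 1.08. Of the 4 BLA punches with high medium spiny neuron markers, 2 were from Lmo4gt/+ and 2 from WT mice. Summed over the list, those markers ran from 934 to 1844 CPM in Lmo4gt/+ mice, against 971 to 1955 CPM in WT mice, and Isl1 was at 0 in some BLA libraries of both genotypes.

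With the medium spiny neuron level as a covariate, the standard error of Ppp1r1b in the BLA shrank to 0.09. The log2 fold change was then 0.27 ± 0.09 for Ppp1r1b (unadjusted p = 0.00688), 0.15 ± 0.05 for Gng7 (p = 0.00430) and 0.14 ± 0.04 for Rasd2 (p = 0.00277). None of these edgeR quasi-likelihood tests passed adjustment (adjusted p = 0.998 each). Of all genes tested, 3.85% had an unadjusted p under 0.05 in that fit, against 3 of the 6. These 3 genes moved together over the BLA libraries, with Pearson's r of 0.870 to 0.943, and are not 3 separate observations. Arpp21, Gnal and Rasgrp2 were at 0.03 ± 0.04, -0.07 ± 0.05 and 0.01 ± 0.09. In the NAc the same fit brought the 6 estimates to between 0.01 and 0.07, and 2.56% of genes, 0 of the 6 among them, had an unadjusted p under 0.05. Leaving out the 4 BLA punches in place of the covariate gave 0.04 ± 0.19 for Ppp1r1b, 0.05 ± 0.07 for Gng7 and 0.03 ± 0.07 for Rasd2 (adjusted p = 0.999 each), and the larger estimates were not seen in that set. Gnal was then at -0.15 ± 0.07, with an unadjusted p of 0.0444 and the same adjusted p.

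**Figure D5:**
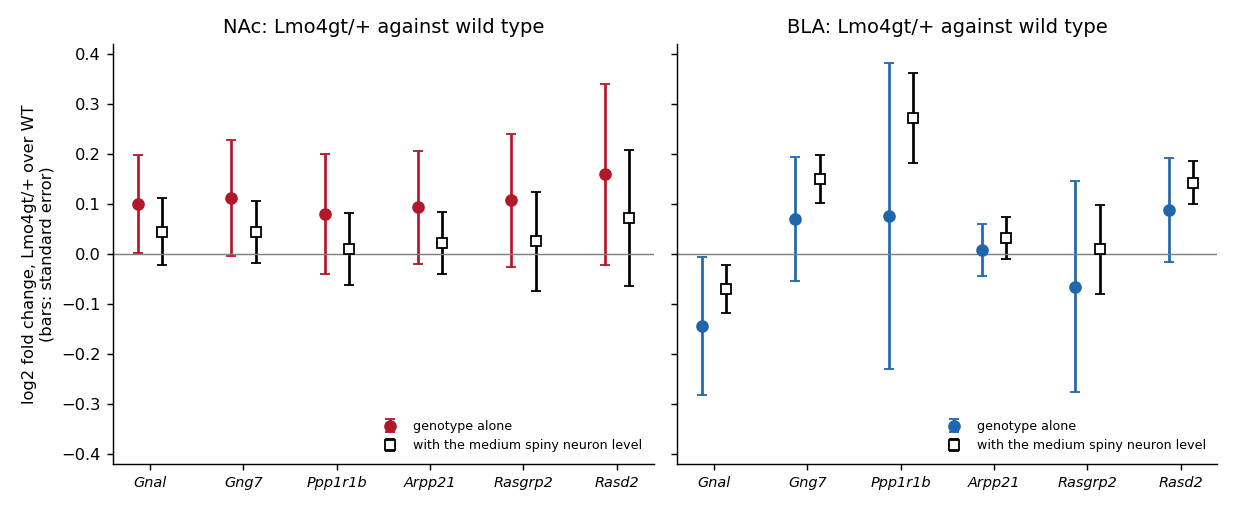
log2 fold change of Lmo4gt/+ over WT for each gene in the NAc (left) and the BLA (right), with standard error bars, from the fit on genotype alone (filled) and with the medium spiny neuron level added (open). In the BLA the bar of Ppp1r1b marks a standard error of 0.09 with that level and 0.31 without it, and no estimate in either panel passed adjustment.

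The difference of NAc and BLA was tested for a change with genotype in the 19 mice with both regions, which leaves out the BLA library of mouse 151. None of the 6 was called, nor was any of 18325 genes (0%), of which 543 had an unadjusted p under 0.05 (2.96%, again 0 of the 6) and DESeq2 called 0. Gnal had the smallest p: its region difference was larger in Lmo4gt/+ mice than in WT mice by 0.26 ± 0.14 on the log2 scale (unadjusted p = 0.0690, adjusted p = 0.9999 by edgeR's quasi-likelihood test). The others ran from -0.02 ± 0.32 for Ppp1r1b to 0.21 ± 0.20 for Rasgrp2. The medium spiny neuron markers lay above 0 in 16 of 16 cases in this test, with a median of 0.24, and the glutamatergic markers in 0 of 8, with a median of -1.15. Of all genes in this test, 49.22% lay above 0. The part of these markers in these values was not tested.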

How the data were processed

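Per the file headers and labels, the authors deposited raw, whole-number counts for each gene, with a file per library. Per the submitters' processing notes, HISAT2 (version not given in the sources used here), HTSeq 0.11.1, MultiQC 1.7 and DESeq2 belong to their workflow, and the build was mm9. Strand handling is not given in the sources used here. Per library, 24.7% to 38.1% of reads were in lines that name no gene, and these entered neither library sizes nor tests. The 39 libraries were grouped by title. GENCODE vM1 (NCBIM37) supplied names and coordinates, matched on the identifier without its version: 32708 of 51826 identifiers, holding 98.3% of counts, had a name, and 13979 matched with their version, so gene limits in counting may differ. Promoter windows are from RefSeq.

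CPM is counts per 1000000 gene counts. The count test was the two-sided quasi-likelihood test of edgeR 4.0.16 in R 4.3.3, with TMM factors, low counts removed by filterByExpr (minimum 10), robust dispersion and a Benjamini-Hochberg threshold of 0.05. All 6 members passed the filter in every comparison. NAc and BLA were compared with the mouse as a block, its number taken from titles, which make 11 WT and 9 Lmo4gt/+ mice as in the design text. Deviations of same-numbered libraries correlated weakly (median r = 0.0446 over 19 pairs, against -0.00496 for other mice, and over 0.1 in 7 pairs). No pair of libraries within a group was a repeat (lowest chi-square per degree of freedom 6.09), and pairs across groups were not checked. On simulated counts, 94% of genes changed by 0.5 on the log2 scale were recovered for genotype in the BLA, over 17178 genes, 95% for region in WT mice over 17145, and 46% for the interaction over 17807. Changes of 1 were recovered for 100% in each. The simulation gave every gene the same dispersion, planted changes in well counted genes only and held no differences between mice. In the BLA, Ppp1r1b and Rasgrp2 had standard errors of 0.31 and 0.21 for genotype, so these recovered shares do not apply to them. Gnal, Gng7 and Rasd2 had 0.14, 0.12 and 0.10 there, and the simulation was not set to the spread of any member. Each size of change was planted in 100 genes, while the genotype test in the BLA called 1 gene. Genotype in the NAc was not simulated. The recovered shares are therefore no measure of what could be found for the 6 members.

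Family shares used counts per kb of all annotated exons and exact two-sided permutation tests. Relations with the medium spiny neuron level used log2 CPM with a prior count of 0.5 and permutation tests with 100000 resamples. Besides the 6 members and Lmo4, genes named were, per pathway list, up to 3 per direction with the largest change among those past the threshold, the relatives used in shares, and the 3 genes most like each member per region, leaving out Gm, Rik and pseudogene names, and 1 such gene is not reported here. The members and lists were chosen with earlier results of these data known. Alternatives were DESeq2 1.42.0, DESeq2 size factors, library totals, no filter, no block, other lengths, a marker covariate and libraries left out.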

Additional observations from a re-analysis of the deposited data

Results flagged for a closer look

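Of 33 groups of 4 to 10 libraries looked at for a library far from the others by Dixon's criterion, 2 held one, where chance alone gives about 1 in 20. Arpp21 measured 418.4 CPM in the BLA library of mouse 159 (Lmo4gt/+), against 283.3 to 326.4 CPM in the other 8 libraries of the group. The share of Rasgrp2 in Rasgrp1 to Rasgrp4 was 5.627% in the NAc library of mouse 122, against 8.24% to 10.64% in the other 8 libraries of its group. The first library was among the 4 BLA punches with high medium spiny neuron markers, and the second carries conflicting genotype labels and glutamatergic markers at 1019 CPM. The part of either in these values was not tested.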

How the results depend on the processing

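Over the alternatives, 200 of 204 values of single genes kept their direction and their side of the threshold, and all region calls of the 6 members did. The genotype counts became 2 called genes in each region without the count filter and with DESeq2, against 1, with no member among them. Reversed estimates, none of them called, were Arpp21 in the BLA without the libraries of mice 129, 149, 156 and 159 (-0.0163), Rasgrp2 in the BLA with the marker covariate (0.00942), and without mice 122, 129, 134, 149, 156 and 159 the interaction of Gng7 (-0.0197) and of Rasd2 (-0.0179) and the genotype difference in the Ppp1r1b share (-0.186 percentage points in the BLA and -0.126 in the NAc). Without those 6 mice 1 of 20 share tests passed, against 10, since fewer mice raise the smallest possible p, and the passing one was new: the Rasd2 share in the BLA, 2.64 percentage points lower in Lmo4gt/+ mice. Rasd1, the other gene of that share, was low, with means of 2.61 and 2.07 CPM in all BLA libraries of Lmo4gt/+ and WT mice. The cause of this share difference was not tested. Without the replicate block of mice, 9900 genes were called between regions in WT mice and 9095 in Lmo4gt/+ mice, against 10064 and 8966, with 0 for the interaction, and no call of a member changed. The relation of Arpp21 to the medium spiny neuron level in the BLA lost its call (r = 0.487) without the punches that stood apart. Changes near 0.5 on the log2 scale would often be missed in the interaction test, and the standard error of Ppp1r1b in the BLA was 0.31, against 0.09 with the marker covariate.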
